A study of Schizosaccharomyces pombe with 2 samples.

Results

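A set of 5 metabolic and transport genes with lower transcript levels in nitrogen-starved *lsg1Δ* cells are described, namely *frp1*, *ght4*, *pdc201*, *egt1* and *etr1*. They are 5 of the 64 features that could be named among the 4997 features of a fission yeast expression array. The genes were chosen by their log2 ratio of *lsg1Δ* over wild-type in the authors' deposited table, in which all 5 are below -1, as are 64 of the 4997 features (1.28%). Their lower level is thus the ground of the choice and not a finding. The *lsg1Δ* strain JT659 (*h90 lsg1::kanR ade6-M216 leu1*) lacks the γ subunit of CTDK-I, a kinase of the RNA polymerase II C-terminal domain, and the wild-type strain JY450 is *h90 ade6-M216 leu1*. Both strains are homothallic haploids and share the *ade6-M216* and *leu1* alleles. Cultures in mid-log growth in minimal medium (MM) were moved to the same medium without nitrogen (MM-N), and RNA was taken after 2.5 h. The treatment label alone gives 2 h. Total RNA of each strain was labeled with Cy3 and hybridized to 1 array, so no test between strains can be made, and strain, culture and array cannot be told apart.

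The proteins of the 5 genes act at separate points of metabolism. Ferric reductase reduces iron at the cell surface before its uptake, and hexose transporters of the Ght family carry sugar across the plasma membrane. Pyruvate decarboxylase turns pyruvate into acetaldehyde, the step that commits it to ethanol fermentation. Ergothioneine is a sulfur-containing derivative of histidine that fungi make as an antioxidant, and mitochondria hold a fatty acid synthesis pathway of their own that supplies the precursor of lipoic acid. Fission yeast cells deprived of nitrogen arrest in G1 and enter either sexual development or quiescence.

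Each gene is read by 7 probes, and each probe is printed at 2 spots. Names were assigned by matching the log2 ratio of a feature in the deposited table to the list of lowered genes of the study, since the array files carry only feature identifiers. All 64 genes of that list matched 1 feature within 2.11e-05, and the next feature was at least 0.000807 away. This rests on the rows of the deposited table following the sorted feature identifiers, in which order the deposited and scanned log2 levels had a Pearson r across features of 0.98 on either array. The deleted gene served as a check of the labels. Its 7 probes had a median intensity of 197 on the *lsg1Δ* array and 3309 on the wild-type array, and 0 of 7 against 7 of 7 were above background, taken as the lowest 5% of spots. All other spots of an array pass this cutoff by definition, so a probe above background does not by itself show that a transcript was detected. The *lsg1Δ* array was the dimmer of the pair, with a median spot intensity of 5685.5 against 6737 for wild-type. Ratios are therefore given after background correction and quantile normalization of the scanned intensities, as log2 of *lsg1Δ* over wild-type, and each SD is taken over the 7 probes of the gene, a technical spread.

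With this processing the 5 genes had log2 ratios between -1.19 and -0.80, with a median of -1.06, against a median of 0.01 over all 4997 features. A total of 3 of the 5, *egt1*, *etr1* and *frp1*, had fallen by more than 2-fold in *lsg1Δ*, as had 53 features of the array (1.06%). All 5 were lower by more than 1.5-fold, as were 123 features (2.46%). Only 17 features (0.34%) were higher by more than 2-fold. The 5 genes were chosen as lowered on these same arrays, so their counts are a description and lend no support to the falls. Every one of their 35 probes and 70 spots was lower in *lsg1Δ*. Over the array, 412 features (8.24%) had all of their spots lower. For all 35 probes both *lsg1Δ* spots also lay below both wild-type spots, in the scanned as in the normalized intensities. How often this holds over the array was not counted, and the *lsg1Δ* array was the dimmer in scanned values. Given the choice of the genes, these counts of probes and spots likewise lend no support to the falls.

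**Figure D1:**
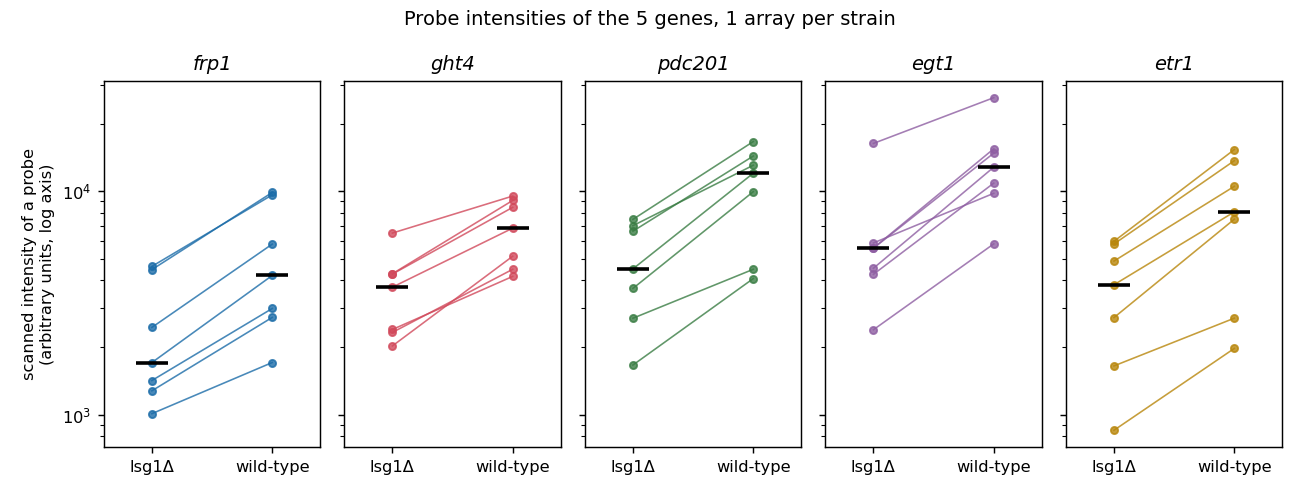
Scanned intensity (arbitrary units, log axis) of each of the 7 probes of each gene, mean of 2 spots, on the *lsg1Δ* array (left) and the wild-type array (right); lines join the same probe and black bars are medians over probes. All 35 lines slope the same way, with *frp1* medians of 1711 in *lsg1Δ* and 4199 in wild-type.

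*frp1* (SPBC1683.09c) encodes a ferric reductase of the plasma membrane, which acts in reductive iron uptake. Its probes had a median intensity of 1711 in *lsg1Δ* (lowest 1010.5, highest 4610) and 4199 in wild-type (lowest 1712, highest 9877.5). All 7 probes were above background on both arrays. The normalized level was 10.56 in *lsg1Δ* and 11.61 in wild-type on the log2 scale, a 2.08-fold fall in the mutant (log2 ratio -1.06, SD 0.17, 7 probes). The probes of *frp1* differed least among themselves, with log2 ratios from -1.26 to -0.76 and 4 of 7 below -1. In the order of their position along the feature these ratios were -1.06, -1.13, -0.98, -0.88, -1.26, -1.12 and -0.76. The extremes were thus among the last 3 probes, and no run of neighboring probes stood apart. The authors' deposited levels of *frp1* were 794.93 in *lsg1Δ* and 1627.12 in wild-type (log2 ratio -1.03), the smallest fall of the 5 genes in that table. The call past 2-fold is lost with no background correction (log2 ratio -0.82) and with the second spot of each probe alone (-0.99).

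*ght4* (SPBC1683.08) encodes a member of the Ght family of hexose transporters. Its median probe intensity was 3722 in *lsg1Δ* (2031 to 6501.5) and 6840 in wild-type (4159.5 to 9520), with all probes above background. The normalized log2 level was 11.76 in *lsg1Δ* and 12.56 in wild-type, and expression was 1.75-fold lower in the mutant (log2 ratio -0.80, SD 0.29). This is the smallest fall of the 5 genes with this processing, and it is not past 2-fold. The ratios by position were -0.34, -0.81, -1.27, -0.91, -0.80, -0.69 and -0.62. The first probe, at position 214, thus moved least and the third, at position 785, moved most and was the only one below -1. Without any 1 of the probes the ratio of *ght4* stayed between -0.81 and -0.75. In the deposited table its levels were 2011.7 in *lsg1Δ* and 4318.95 in wild-type (log2 ratio -1.10), which is past 2-fold, as are the value with an RMA background adjustment (-1.16) and the value without normalization (-1.04).

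*frp1* and *ght4* lie next to each other on chromosome II in the RefSeq table of assembly ASM294v3, and their feature identifiers on the array, TI4896S000938 and TI4896S000937, are consecutive. Their log2 ratios, -1.06 and -0.80, differed by less than the probe SD of *ght4* and by more than that of *frp1*. Of the 64 named genes, 60 were found in that table, and 2 pairs among these had no other protein-coding gene between them, *frp1* with *ght4* being the only pair among the 5 genes. The coding genes on the far sides, *pcl1* beside *frp1* and *mal1* beside *ght4*, are not among the 64. The table places 3 noncoding RNA genes over *ght4* and 0 over *frp1*. The sources used here do not give the strand that the probes read, so signal of overlapping transcripts cannot be told apart from that of *ght4*.

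*pdc201* (SPAC3G9.11c) encodes a pyruvate decarboxylase. Its probes had a median intensity of 4493 in *lsg1Δ* (1668 to 7484.5) and 12045.5 in wild-type (4066.5 to 16692), all above background. The normalized log2 level was 12.26 in *lsg1Δ* and 13.23 in wild-type. The gene was 1.97-fold lower in *lsg1Δ* (log2 ratio -0.98, SD 0.30), just short of 2-fold. By position the probes of *pdc201* had ratios of -0.98, -0.93, -1.25, -1.28, -1.30, -0.71 and -0.54. The 3 probes in the middle, at positions 804 to 1032, were past 2-fold and the 2 beyond them fell least. The 2 spots also gave unlike values for this gene, -1.15 with the first spot of each probe and -0.83 with the second, and leaving out any 1 probe gave values from -1.11 to -0.95. In the deposited table *pdc201* had levels of 3043.86 in *lsg1Δ* and 7749.44 in wild-type (log2 ratio -1.35). It is likewise past 2-fold with the RMA adjustment (-1.27), without normalization (-1.20) and with odd-numbered probes (-1.11).

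*egt1* (SPBC1604.01, *mug158* in the study's list) encodes the enzyme that starts ergothioneine synthesis from histidine. The median probe intensity was 5559 in *lsg1Δ* (2400.5 to 16376) and 12827 in wild-type (5816.5 to 26243.5), all above background. The normalized log2 level was 12.20 in *lsg1Δ* and 13.39 in wild-type. At 2.28-fold lower in *lsg1Δ* (log2 ratio -1.19, SD 0.37), *egt1* had the largest fall of the 5 genes and also the widest spread among probes. The spread followed position. The first 5 probes, at positions 393 to 969, had ratios of -1.32, -1.35, -1.16, -1.19 and -1.25, whereas the last 2, at positions 1286 and 1490, had ratios of -0.49 and -0.53. Both spots of the last 2 probes lay between -0.56 and -0.43, and the spots of the first 5 lay between -1.43 and -0.95. The *egt1* fall was the only one of the 5 that stayed past 2-fold under all 11 alternative ways of processing, with ratios from -1.79 with the RMA adjustment to -1.01 with the first spot alone. The 2 spots gave unlike values for *egt1* too, since the second spot alone gave -1.30. Its deposited levels were 3384.43 in *lsg1Δ* and 9333.47 in wild-type (log2 ratio -1.46), the largest fall of the 5 there too.

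*etr1* (SPAC26F1.04c, *atr1* in the study's list) encodes the enoyl reductase of mitochondrial fatty acid synthesis. Its median probe intensity was 3814.5 in *lsg1Δ* (851.5 to 5969.5) and 8085.5 in wild-type (1979.5 to 15370). The dimmest probe, at 851.5 in *lsg1Δ*, was below the background cutoff of 912 there. Thus 6 of 7 probes in *lsg1Δ* and 7 of 7 in wild-type were above it, as are all but the lowest 5% of spots by definition. The normalized log2 level was 11.77 in *lsg1Δ* and 12.84 in wild-type, a 2.09-fold fall (log2 ratio -1.06, SD 0.30). Ratios by position were -0.57, -0.91, -1.06, -1.19, -1.36, -0.94 and -1.47. The first probe of *etr1*, at position 18, fell least, and the probe below that cutoff, at position 805, fell most. Its intensity was above those of the deleted gene's probes on the *lsg1Δ* array (176.5 to 212.5). As the dimmest probe, its ratio is less certain than the others. The next coding gene, *pda1*, which encodes a subunit of pyruvate dehydrogenase, overlaps *etr1* in the RefSeq table and is not among the 64 named genes. A noncoding RNA gene also overlaps *etr1* there. In the deposited table *etr1* had levels of 1936.36 in *lsg1Δ* and 4589.47 in wild-type (log2 ratio -1.24). Its call past 2-fold is lost with no background correction (-0.94), with even-numbered probes (-0.94) and with the first spot alone (-0.96).

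**Figure D2:**
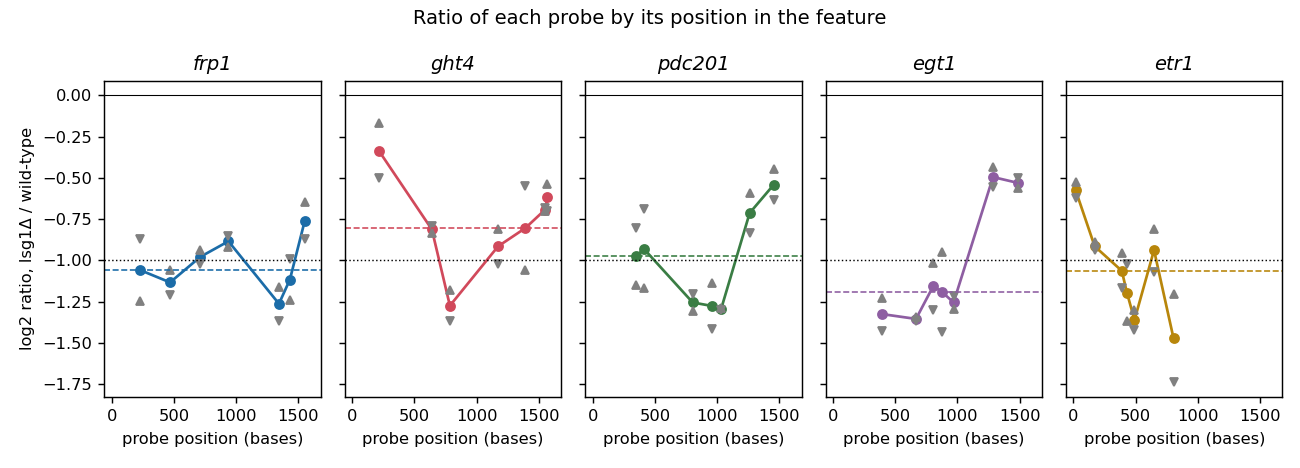
Log2 ratio of *lsg1Δ* over wild-type for each probe (colored points; gray triangles are its 2 spots, upward for the first and downward for the second) against its position in the feature in bases, as the array files number it. Dashed lines are the ratio of the gene, the dotted line is 2-fold and the solid line is no difference; the last 2 probes of *egt1* lie at -0.49 and -0.53, apart from its first 5.

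The probes farthest along *pdc201* and *egt1* thus fell less than the others. The mean ratio of the last 2 probes minus that of the first 5 was 0.74 for *egt1* and 0.52 for *pdc201*, a comparison chosen after the values were seen. For *ght4*, *frp1* and *etr1* it was 0.17, 0.13 and -0.18. Over the 4996 features with 7 probes this difference had a median of 0.04 and ran from -0.23 at the 5th percentile to 0.34 at the 95th, so *egt1* and *pdc201* were beyond that range and the other 3 genes within it. The median probe SD was 0.15 over all features and 0.30 for the 5 genes, so the range is not one for genes of like spread. The sources used here do not say whether positions count from the start of the transcript. In the RefSeq table *egt1* overlaps the coding gene *ppr1*, and *pdc201* overlaps 1 noncoding RNA gene, and any part of these overlaps in the position pattern was not tested.

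Ordered by the size of the fall, the genes were *egt1*, *etr1*, *frp1*, *pdc201* and *ght4*. The gaps between neighbors in this order were 0.13, 0.005, 0.08 and 0.17 on the log2 scale, each smaller than the probe SD of both genes compared. The gap between *egt1* and *ght4*, 0.39, was slightly above the larger of their probe SDs, 0.37. A probe SD is the spread of single probes and not the uncertainty of a gene's ratio, so it cannot settle whether the order is resolved. The order moved with the processing, since in the deposited table it was *egt1*, *pdc201*, *etr1*, *ght4* and *frp1*. Among all 4997 features ranked from the most lowered, *egt1* was at rank 35, *etr1* at 45, *frp1* at 47, *pdc201* at 55 and *ght4* at 75. In the deposited table their ranks were 31, 42, 61, 37 and 53. For comparison, the transcription factor gene *ste11* had a log2 ratio of -1.41 (SD 0.15) and rank 26 here. The features on either side of the 2-fold limit that chose the genes had deposited log2 ratios of -1.006 and -1.005 inside it, and -0.995 and -0.993 outside it, against -1.03 for *frp1*, the member nearest to it. The median probe SD of the 5 genes was 0.30, against 0.15 over all features.

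**Figure D3:**
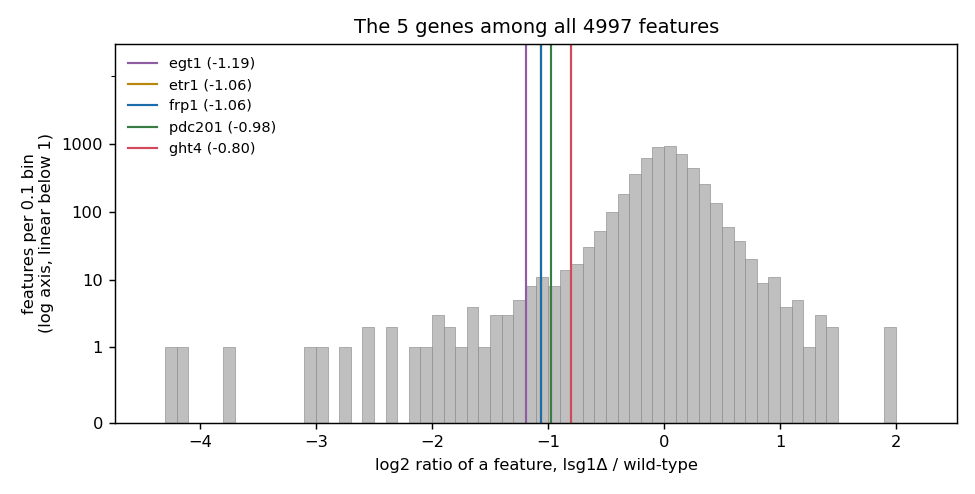
Number of the 4997 features per bin of 0.1 in log2 ratio of *lsg1Δ* over wild-type (gray bars, log axis), with the 5 genes as vertical lines. The lines lie between -1.19 and -0.80, in the lower tail and short of the most lowered feature at -4.22.

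With 2 arrays a pattern across samples is only a ratio, so likeness was taken as the difference in log2 ratio to each other named gene. Nearest to *frp1* were the unnamed locus SPAC637.03 (-1.06) and *dni1* (-1.05). Nearest to *ght4* were SPAC27D7.10c (-0.80) and *bcp1* (-0.82), and nearest to *pdc201* were *his6* (-0.96) and *sod2* (-0.996). For *egt1* they were *mug4* (-1.16) and *mug14* (-1.22), and for *etr1* they were SPAC637.03 again and *frp1*. All of these differences were 0.03 or less on the log2 scale, well under the probe SDs. The candidates were the 64 named genes, all past 2-fold lower in the deposited table. Near values were thus largely fixed by that choice, and closeness here does not show that genes behave alike.

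Other genes of the same processes could not be followed, because a feature has a name here only if its gene is in the study's list of lowered genes. Of 11 iron uptake genes and 8 hexose transport genes, *frp1* and *ght4* were the only ones identified. Of 6 genes of pyruvate decarboxylation and fermentation, 2 of ergothioneine synthesis and 5 of mitochondrial fatty acid synthesis, again 1 each was identified. The others were not analysed here, and the counts say nothing of whether these processes changed as a whole.

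**Figure D4:**
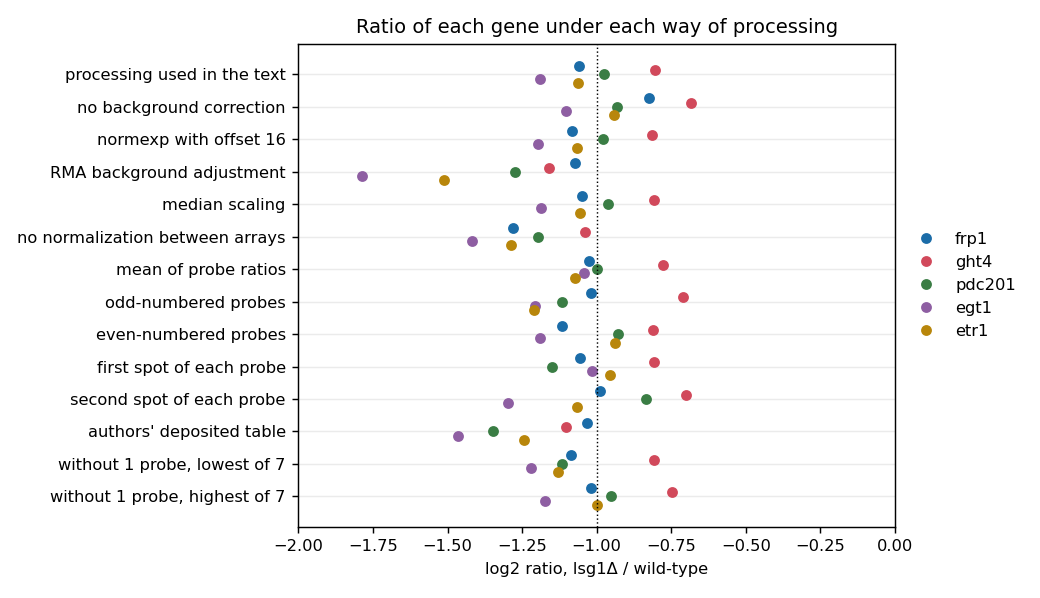
Log2 ratio of *lsg1Δ* over wild-type of each gene (colored points) under the processing used in the text (top row) and under each alternative (other rows); the dotted line is 2-fold. Of the 5 genes, *egt1* alone is left of the line in every row, with values from -1.79 to -1.01.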

How the data were processed

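RNA of 2 nitrogen-starved strains, *lsg1Δ* and wild-type, was measured on 1 single-color array each. Roche Applied Science acquired and normalized the data for the authors. The deposited scanner files give a linear intensity for each of 69954 spots and hold no background values. A second deposited table gives the authors' normalized intensity of each feature. The sources used here do not say how it was normalized, and it repeats its 4997 rows once (9994 in all).

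With limma 3.58.1 in R 4.3.3, the scanned values were corrected by normexp (offset 50) and quantile-normalized. Log2 values were averaged over both spots, and probes were summarized by median polish. Other steps used Python 3.11.15, numpy 2.4.6, pandas 2.3.3 and matplotlib 3.10.9. The processing steps were checked on simulated arrays with known falls. Both were built from the wild-type array with added spot noise, and a fall was equal over the probes of a gene. The check thus does not cover a brightness difference between arrays or falls that differ among probes. There is 1 array per strain, whose number limits the precision, and no test between strains was made; a feature counted as changed past 2-fold.

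The named genes are the 5 members, *lsg1*, *ste11*, their neighbors and the 2 genes nearest in ratio. Members and lists were chosen with earlier results of these data known. Coordinates of ASM294v3 are not given because the sources used here do not give the build of the array design.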

Additional observations from a re-analysis of the deposited data

How the results depend on the processing

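No paired analysis was possible because there was a single array for either strain. Under 11 alternative ways of processing, and with the lowest and highest value of each gene when its probes were left out in turn, the 5 ratios gave 65 values, of which 0 changed sign, 57 stayed within the probe SD and 8 did not. Those 8 were *frp1* with no background correction (-0.82) and without normalization (-1.28), *ght4* (-1.16), *pdc201* (-1.27), *egt1* (-1.79) and *etr1* (-1.51) with the RMA background adjustment, and *ght4* (-1.10) and *pdc201* (-1.35) in the authors' deposited table. Without normalization the median over all features was -0.20, and relative to it *frp1* was at -1.08. The yardstick was each gene's own probe SD (0.17 for *frp1*, 0.37 for *egt1*), so a wider shift passes for some genes. Leaving out 1 of 7 probes can seldom move a median that far. The number of the 5 genes past 2-fold, 3, was 1 when the background was not corrected and 5 under the RMA adjustment, without normalization and in the deposited table, where the genes were chosen by that limit. It was 4 with odd-numbered probes, 2 with even-numbered probes, 2 with the second spot alone, and 3 or 4 with a probe left out. The count of lowered features, 53, was 81 without normalization. The count of features higher by more than 2-fold, 17, was 6 when the background was not corrected, 26 under the RMA adjustment and 8 without normalization. The causes were not tested, apart from the shift of the median. With the background cutoff at the lowest 1% or 10% of spots, 35 or 32 of the 35 probes were above it in *lsg1Δ*, against 34 at 5%. The promoter motif search was not run, because no promoter sequences were used here.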
